A study of Homo sapiens with 18 samples.

Results

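The AP-1 transcription factor family was followed through the transcriptome and the accessible chromatin of A2780 and Acis cells. Its members were taken by gene symbol as FOS, FOSB, FOSL1, FOSL2, JUN, JUNB, JUND and ATF3. They are 8 of the 23622 genes in the deposited counts, which hold only genes with at least 10 counts over all libraries together. All 8 passed the filter on low counts that left 15760 genes for testing. The rule uses no measured value, but the family was chosen with earlier results of these data known. A2780 is a human ovarian carcinoma line that is sensitive to cisplatin, a platinum drug that forms adducts on DNA, and Acis (A2780cis) is its cisplatin-resistant derivative. Each line was either left without drug or incubated for 3 h in medium with 200 µM cisplatin, which gave the 4 groups A2780 control, A2780 cisplatin, Acis control and Acis cisplatin, each with 3 RNA-seq libraries from separate wells and 1 ATAC-seq peak list. Acis cells of both groups had also received 1 µM cisplatin every 3 passages during culture, so the resistant line without treatment had met the drug before. Resistance is represented by 1 derived line, so features of resistance and features of this line cannot be told apart.

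AP-1 proteins are basic leucine zipper factors that bind DNA as dimers. FOS-type proteins need a JUN-type partner, whereas JUN-type proteins can also pair among themselves, and ATF3 pairs with JUN proteins or with itself. FOS, FOSB, JUN and ATF3 are classical immediate-early or stress genes, whose RNA can rise within minutes to hours of a stimulus through preformed factors and stress-activated kinases, and JUND is usually expressed more evenly.

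The 12 RNA-seq libraries held 4130644 to 5072216 counts on genes. Of 15 markers of epithelium, of ovarian carcinoma and of other cell types, 5 were in the deposited counts. The epithelial marker EPCAM had 0 to 6 counts per library. KRT8 had 12 to 26 in A2780 and 2 to 8 in Acis libraries, whereas KRT18 had 19 to 41 in A2780 and 124 to 155 in Acis libraries. PAX8, WT1, MUC16, CDH1 and 6 others were not in the deposited counts, which leave out genes with fewer than 10 counts over all libraries together. They may thus have had a few reads, and the labelled carcinoma origin had little marker RNA behind it. COL1A1, a collagen gene of fibroblasts and other mesenchymal cells, had 629 to 967 counts in A2780 libraries and 5 to 21 in Acis libraries, and its part in the differences between the lines was not tested. Some replicates were closer to each other than counting noise alone would put them, so the p-values below measure a spread between wells that may be mostly technical.

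The starts of the 4 genes that were called in both lines, and of JUND, which moved least, are shown here because the accessible peaks described further on cover or adjoin them. The windows run from 250 bases before to 50 after the start on the strand of the gene, from RefSeq on GRCh38.p14 for FOS (chr14:75278578-75278877, plus strand), FOSB (chr19:45467746-45468045, plus strand), JUN (chr1:58783998-58784297, minus strand) and JUND (chr19:18281573-18281872, minus strand). For ATF3 the 2 RefSeq windows held no peak in any list, and the window shown lies at the start of the GENCODE canonical transcript, under the peak (hg38, chr1:212608511-212608810, plus strand). FOSL1 had no entry in the table. Capitals mark the letters searched, on both strands: TGANTCA (the AP-1 site), TGACGTCA (the cAMP response element), TGACATCA, TGACG (contained in the full response element) and TATAAA.
FOS: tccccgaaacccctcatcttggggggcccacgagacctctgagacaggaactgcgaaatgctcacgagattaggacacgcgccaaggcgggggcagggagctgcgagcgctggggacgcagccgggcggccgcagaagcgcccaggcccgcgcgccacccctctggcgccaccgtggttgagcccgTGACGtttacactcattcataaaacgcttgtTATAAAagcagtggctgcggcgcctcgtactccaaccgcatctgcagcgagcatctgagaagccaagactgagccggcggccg
FOSB: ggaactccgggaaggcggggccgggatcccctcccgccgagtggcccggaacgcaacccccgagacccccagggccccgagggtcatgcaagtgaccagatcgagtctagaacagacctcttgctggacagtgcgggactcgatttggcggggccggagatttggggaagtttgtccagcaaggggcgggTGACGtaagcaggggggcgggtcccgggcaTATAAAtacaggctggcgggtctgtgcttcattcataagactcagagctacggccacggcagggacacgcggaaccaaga
JUN: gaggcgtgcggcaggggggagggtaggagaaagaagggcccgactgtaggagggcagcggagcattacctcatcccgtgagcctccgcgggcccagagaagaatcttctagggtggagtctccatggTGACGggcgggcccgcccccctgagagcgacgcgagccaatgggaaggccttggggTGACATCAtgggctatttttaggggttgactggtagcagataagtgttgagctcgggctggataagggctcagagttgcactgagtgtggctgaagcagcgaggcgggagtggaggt
JUND: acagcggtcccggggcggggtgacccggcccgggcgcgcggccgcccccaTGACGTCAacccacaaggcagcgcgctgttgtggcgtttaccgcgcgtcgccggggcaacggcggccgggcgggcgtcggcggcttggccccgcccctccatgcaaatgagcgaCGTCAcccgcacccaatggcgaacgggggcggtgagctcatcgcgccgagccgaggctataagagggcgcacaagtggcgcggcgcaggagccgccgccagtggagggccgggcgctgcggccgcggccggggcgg
ATF3: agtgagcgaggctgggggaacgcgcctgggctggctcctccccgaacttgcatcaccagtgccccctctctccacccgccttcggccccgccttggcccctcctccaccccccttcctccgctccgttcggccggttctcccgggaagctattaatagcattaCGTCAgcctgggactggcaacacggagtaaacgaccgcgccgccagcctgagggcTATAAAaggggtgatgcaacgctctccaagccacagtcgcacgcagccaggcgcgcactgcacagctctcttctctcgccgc
Counting the start as position 1 and the base before it as -1, TGACG began at -64 in FOS and at -60 in FOSB, each with TATAAA about 30 bases before the start (first base at -33 and -30). The ATF3 window resembled them, with the reverse complement of TGACG at -87 and TATAAA at -32. JUN held TGACATCA at -67 and TGACG at -123 without TATAAA, and JUND held the full TGACGTCA at -200 and the reverse complement of TGACG at -86, also without TATAAA. Of 35116 RefSeq windows of this length, 24.6% held TGACG, 11.5% held TATAAA, 2.61% held TGACATCA, 1.85% held TGACGTCA and 7.71% held TGANTCA. FOSL2 was the only one of the 7 members with a window in which TGANTCA was found, as TGACTCA at position 5. A CArG box, the site of serum response factor, was in 1.29% of all windows and in none of these. Sites more than 250 bases before the start were not searched, so this does not show that a gene lacks such a site. These matches describe letters and were not tested for binding.

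To find which AP-1 genes respond to the drug, cisplatin-treated cells were compared with untreated cells of the same line. In A2780 cells, the RNA of all 8 members was higher after 3 h of cisplatin, from 1.26-fold for JUND to 13.2-fold for JUN. In Acis cells 7 of 8 rose, from 1.33-fold for JUNB to 3.64-fold for FOS, and JUND did not pass the test. Every member had a smaller fold change in Acis than in A2780, and for 6 of 8 the difference between the lines passed the test of the interaction. The smaller folds came in different ways, since JUN was higher in untreated Acis cells and overlapped A2780 after the drug, FOS overlapped before the drug and was lower in Acis after it, and ATF3 was lower in Acis throughout.

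FOS encodes the founding FOS-type subunit. Its normalized counts, which are counts scaled to a common library size, were 74.6, 75.0 and 71.5 in A2780 control, 828, 822 and 834 in A2780 cisplatin, 73.2, 68.1 and 80.9 in Acis control, and 275, 273 and 261 in Acis cisplatin libraries. The 2 untreated groups overlapped, and the treated groups lay apart from them and from each other. The log2 fold change with cisplatin was 3.49 ± 0.06 (SE) in A2780 (11.2-fold, adjusted p = 1.64e-24, edgeR's quasi-likelihood test with Benjamini-Hochberg adjustment over all genes tested) and 1.87 ± 0.08 in Acis (3.64-fold, adjusted p = 2.91e-14). By the size of this change FOS ranked 16th of 15760 genes in A2780 and 80th in Acis.

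FOSB, a paralog of FOS with the same dimer partners, had 62.5, 85.5 and 91.7 normalized counts in A2780 control, 376, 319 and 355 in A2780 cisplatin, 70.0, 53.2 and 67.2 in Acis control, and 154, 144 and 159 in Acis cisplatin libraries. As for FOS, only the untreated groups overlapped. The log2 fold change was 2.14 ± 0.10 in A2780 (4.41-fold, edgeR adjusted p = 1.83e-15) and 1.26 ± 0.13 in Acis (2.4-fold, adjusted p = 4.14e-08).

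FOSL1 and FOSL2 encode the FOS-related antigens, which lack the strong transactivation domain of FOS. FOSL1 had 42.0, 39.4 and 34.1 normalized counts in A2780 control, 75.9, 75.5 and 82.5 in A2780 cisplatin, 56.2, 54.3 and 51.3 in Acis control, and 95.0, 73.8 and 85.4 in Acis cisplatin libraries. FOSL2 had 178, 196 and 172 in A2780 control, 335, 297 and 287 in A2780 cisplatin, 238, 264 and 244 in Acis control, and 341, 316 and 362 in Acis cisplatin libraries. FOSL2 overlaps a long non-coding RNA gene on its own strand, whose reads counting by strand cannot separate. For FOSL1 and FOSL2 the untreated Acis libraries were above the untreated A2780 libraries, and the treated groups overlapped. FOSL1 rose by a log2 fold change of 1.01 ± 0.14 in A2780 (edgeR adjusted p = 6.78e-07) and 0.65 ± 0.13 in Acis (adjusted p = 0.000342). FOSL2 rose by 0.75 ± 0.08 on the log2 scale in A2780 (edgeR adjusted p = 6.81e-09) and 0.45 ± 0.07 in Acis (adjusted p = 2.9e-05). FOSL1 in A2780 lay at the 2-fold threshold, since its log2 fold change was 0.93 without A2780 control replicate 3 and 0.96 without A2780 cisplatin replicate 3.

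JUN, the partner of FOS in the classical AP-1 dimer, was the member with the fewest counts in untreated A2780 cells, with 8.39, 10.6 and 12.8 normalized counts. It had 156, 121 and 141 in A2780 cisplatin, 72.2, 58.6 and 51.3 in Acis control, and 130.5, 135 and 142 in Acis cisplatin libraries. The treated groups overlapped, and untreated Acis lay between untreated A2780 and both treated groups. The log2 fold change was 3.72 ± 0.18 in A2780 (13.2-fold, 95% interval 10.2 to 17.0, edgeR adjusted p = 6.67e-15), which ranked 11th of 15760 genes, and 1.16 ± 0.12 in Acis (2.23-fold, adjusted p = 6.34e-08). The A2780 fold rested on 9 to 12 reads per untreated library.

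JUNB, which pairs with FOS-type proteins and is often a weaker activator than JUN, had 411, 415 and 405 normalized counts in A2780 control, 792, 800.4 and 803 in A2780 cisplatin, 492, 462 and 432 in Acis control, and 603, 587 and 651 in Acis cisplatin libraries. None of its 4 groups overlapped. It rose by a log2 fold change of 0.96 ± 0.05 in A2780 (1.94-fold, edgeR adjusted p = 1.46e-14), just under the 2-fold threshold, and by 0.41 ± 0.05 in Acis (1.33-fold, adjusted p = 1.09e-06). JUND had 489.6, 538 and 515 normalized counts in A2780 control, 592, 735 and 622 in A2780 cisplatin, 523, 496 and 476 in Acis control, and 557, 527 and 574 in Acis cisplatin libraries. Its log2 fold change was 0.34 ± 0.06 in A2780 (1.26-fold, edgeR adjusted p = 5.52e-05). In Acis it was 0.15 ± 0.07, with a 95% interval of 0.01 to 0.29 and an adjusted p of 0.115 by edgeR. Over 21 other settings that adjusted p was 0.0268 to 0.395 and fell under 0.05 in 3 of them, one of which left out A2780 cisplatin replicate 2 (0.0436).

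ATF3, a stress-induced factor that often represses its targets, had 121, 133 and 123 normalized counts in A2780 control, 589.6, 601 and 558 in A2780 cisplatin, 18.0, 19.2 and 12.5 in Acis control, and 33.6, 27.6 and 42.2 in Acis cisplatin libraries. The 4 groups did not overlap, and every treated Acis library was below every untreated A2780 library. The log2 fold change was 2.21 ± 0.07 in A2780 (4.64-fold, edgeR adjusted p = 4.15e-19) and 1.04 ± 0.23 in Acis (2.06-fold, 95% interval 1.49 to 2.85, adjusted p = 0.0012). The Acis value rested on 11 to 18 reads in untreated and 28 to 43 in treated libraries, and fell under 2-fold, to 0.87 on the log2 scale, both without Acis control replicate 3 and without Acis cisplatin replicate 3.

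**Figure D1:**
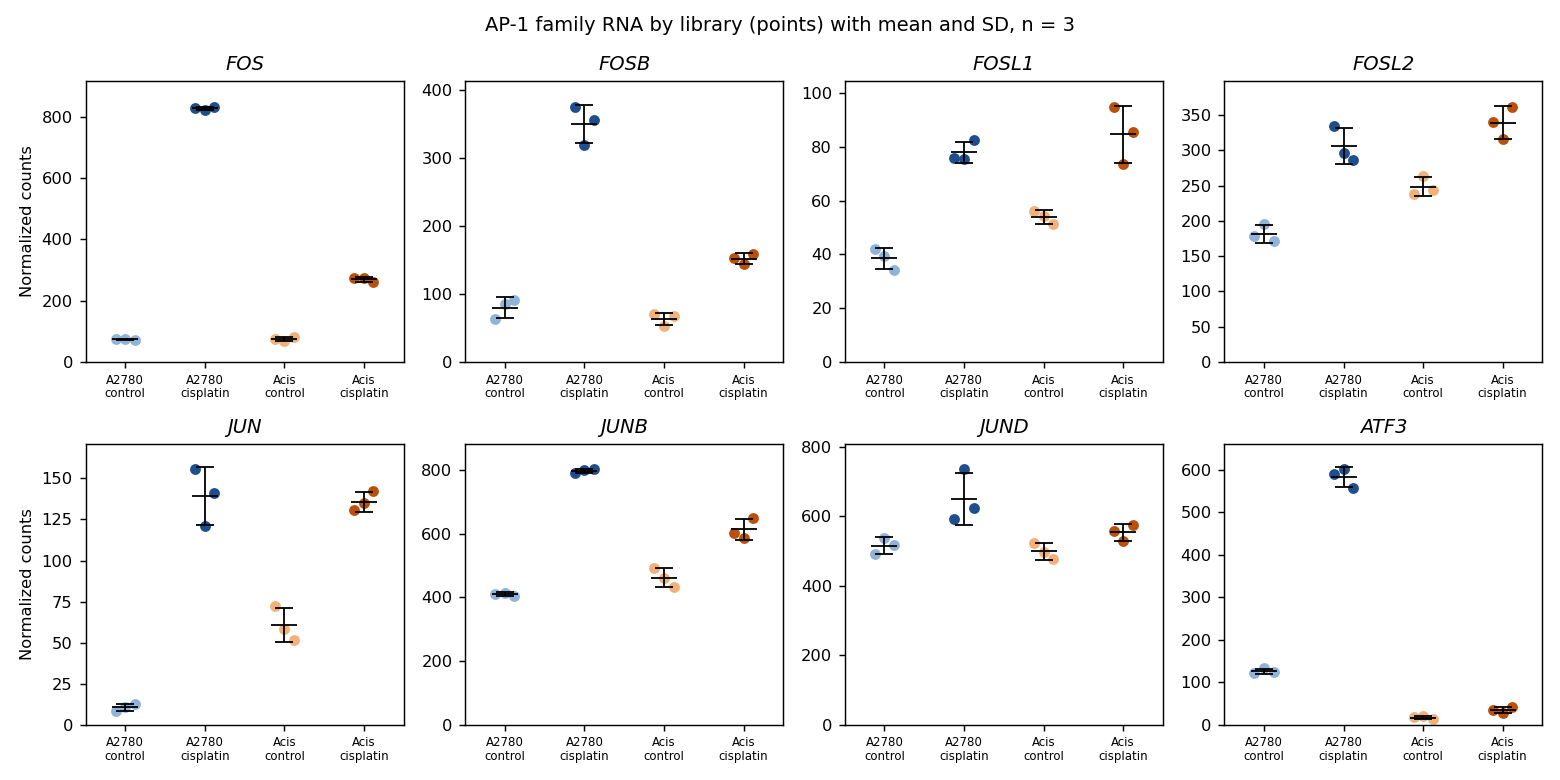
Normalized counts of each AP-1 gene (vertical axis, starting at 0, a scale of its own per gene) in the 12 libraries (points) of the 4 groups, with the mean and SD of 3. JUN reached 121 to 156 after cisplatin in A2780 and 130.5 to 142 in Acis, FOS reached 822 to 834 and 261 to 275, and ATF3 stayed at or below 42.2 in Acis.

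With the adjusted p under 0.05 and a change of at least 2-fold, 5 members were called higher in A2780 (FOS, FOSB, FOSL1, JUN and ATF3), where 4.14% of all tested genes were called higher. By the same rule 4 were called higher in Acis (FOS, FOSB, JUN and ATF3), where 1.64% of all genes were. By the adjusted p alone, 8 were higher in A2780 and 7 in Acis, against 21.2% and 9.35% of all genes. Every treated library was above every untreated one for all 8 members in both lines, which held for 26.2% of all tested genes in A2780 and 16.9% in Acis. The median log2 fold change of the members was 1.57 in A2780 and 0.85 in Acis, and that of all tested genes was -0.01 and 0.01. No member was lower after cisplatin in either line.

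Untreated Acis and A2780 cells were then compared to find which members differed before the drug. This comparison shares the A2780 control libraries with the A2780 comparison above. With the 2-fold rule 1 member was called higher, JUN, and 1 lower, ATF3, where 6.99% of all tested genes were called higher and 12.2% lower. JUN was 5.75-fold higher in Acis (log2 fold change 2.52 ± 0.23, 95% interval of the fold 4.15 to 7.97, edgeR adjusted p = 2.19e-10), and ATF3 was 7.48-fold lower (log2 fold change -2.90 ± 0.17, adjusted p = 1.06e-14). FOSL1 (log2 fold change 0.48, edgeR adjusted p = 0.0128), FOSL2 (0.45, adjusted p = 3.89e-05) and JUNB (0.17, adjusted p = 0.0104) were higher by less than 2-fold. The FOSL1 and JUNB differences did not pass without A2780 control replicate 3 (adjusted p = 0.074 and 0.0513) or without Acis control replicate 1 (0.0544 and 0.156), nor with DESeq2 (0.0744 and 0.0599). FOSB had a log2 fold change of -0.32 (edgeR adjusted p = 0.0732), and passed without A2780 control replicate 1 (adjusted p = 0.0094) or without Acis control replicate 1 (0.043). FOS differed by 0.00 on the log2 scale, with a 95% interval of the fold from 0.851 to 1.18, and JUND by -0.04, with an interval from 0.882 to 1.07.

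After cisplatin, 3 members were called lower in Acis than in A2780, where 11.9% of all tested genes were called lower, and none was called higher. FOS was 3.07-fold lower (log2 fold change -1.62 ± 0.05, edgeR adjusted p = 1.35e-21), FOSB 2.30-fold lower (-1.20 ± 0.08, adjusted p = 7.02e-13) and ATF3 16.9-fold lower (-4.08 ± 0.09, adjusted p = 4.81e-24). JUNB (log2 fold change -0.38, edgeR adjusted p = 3.03e-08) and JUND (-0.23, adjusted p = 0.00165) were lower by less than 2-fold. For JUN the fold was 0.974 with a 95% interval of 0.848 to 1.12 (edgeR adjusted p = 0.757), although its untreated levels differed 5.75-fold. For FOSL1 the fold was 1.09 with an interval of 0.928 to 1.28 (edgeR adjusted p = 0.417). FOSL2 had a fold of 1.11 (interval 1.01 to 1.22, edgeR adjusted p = 0.053), and passed without A2780 cisplatin replicate 1 (adjusted p = 0.00793) or without Acis cisplatin replicate 2 (0.0157).

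The interaction, which tests whether the cisplatin effect differs between the lines, used all 4 groups. The effect was smaller in Acis for 6 of 8 members at an adjusted p under 0.05. At that threshold 5.48% of all tested genes had a negative interaction. The difference in log2 fold change, Acis minus A2780, was -2.56 ± 0.25 for JUN (edgeR adjusted p = 1.14e-07), -1.62 ± 0.13 for FOS (4.49e-09), -1.17 ± 0.26 for ATF3 (0.00237), -0.88 ± 0.18 for FOSB (0.000894) and -0.55 ± 0.07 for JUNB (5.47e-06). For FOSL2 it was -0.30 ± 0.11 with an edgeR adjusted p of 0.0487, which ranged from 0.0176 to 0.153 over 20 other settings and was 0.05 or more in 12 of them. These include the fits without A2780 control replicate 1 (0.12) or 3 (0.136), A2780 cisplatin replicate 1 (0.153), Acis control replicate 1 (0.0504) or 2 (0.146), and Acis cisplatin replicate 1 (0.082) or 2 (0.133), the replicate block (0.0541) and DESeq2 (0.152). FOSL1 (-0.36, 95% interval -0.75 to 0.03, edgeR adjusted p = 0.265) and JUND (-0.19, interval -0.38 to 0.00, adjusted p = 0.159) did not pass, except JUND without A2780 cisplatin replicate 1 (0.0427).

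**Figure D2:**
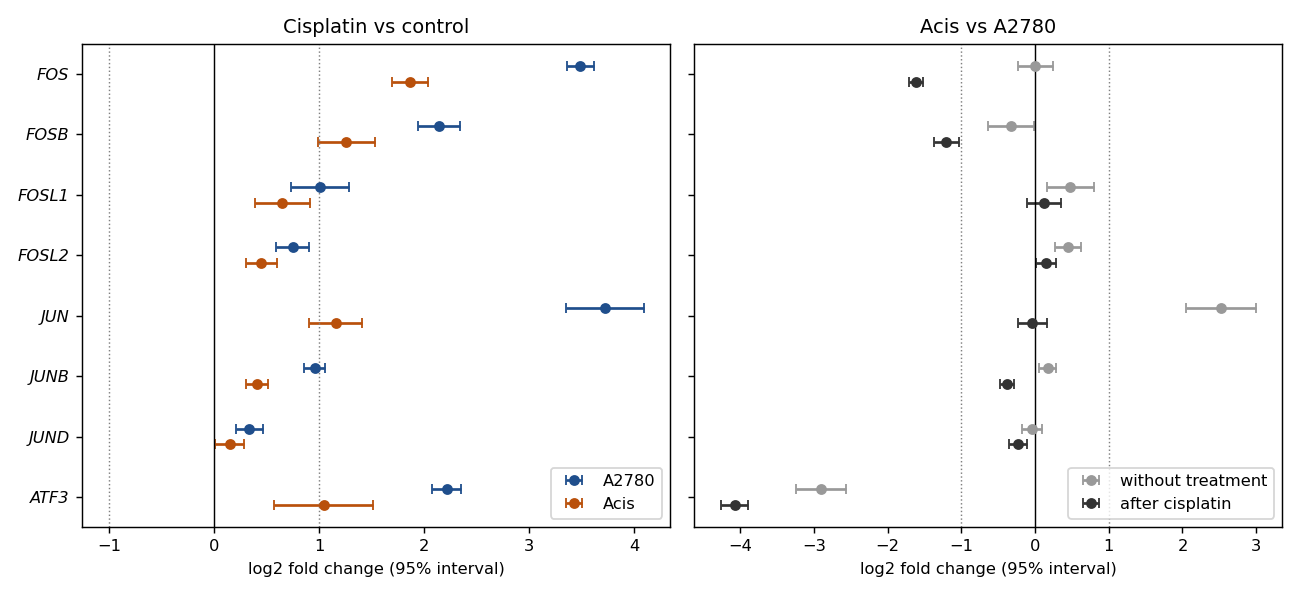
Log2 fold changes of the 8 AP-1 genes (points) with 95% intervals (bars), for cisplatin against control in each line on the left and for Acis against A2780 with and without cisplatin on the right. Dotted lines mark a 2-fold change. All points on the left are higher for A2780 than for Acis, and on the right JUN moves from 2.52 without treatment to -0.04 after cisplatin while FOS moves from 0.00 to -1.62.

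Levels were compared between members per kilobase of the canonical transcript, as RPKM, the counts scaled for both transcript length and library size. In untreated A2780 cells JUND (58.0 ± 2.75 RPKM, SD, n = 3) and JUNB (48.8 ± 0.589) were highest, followed by ATF3 (14.1), FOS (7.62), FOSL2 (5.90), FOSL1 (4.92), FOSB (4.61) and JUN (0.708). Libraries of neighbours in this order overlapped only for FOSL1 and FOSB. After cisplatin the order in A2780 became JUNB (95.0 ± 0.681), FOS (85.6 ± 0.615), JUND (73.3 ± 8.45) and ATF3 (65.4 ± 2.52), with JUND and ATF3 overlapping, and then FOSB (20.2), FOSL1 (9.97), FOSL2 (9.93) and JUN (9.31), where neighbours among the last 3 overlapped. In untreated Acis cells JUND (56.2 ± 2.66) and JUNB (55.0 ± 3.60) overlapped at the top, FOSL2 (8.06), FOS (7.66) and FOSL1 (6.90) overlapped with their neighbours, as did JUN (4.05) and FOSB (3.66), and ATF3 (1.86 ± 0.398) was lowest. In treated Acis cells the order was JUNB (73.0 ± 3.93), JUND (62.4 ± 2.68), FOS (27.9 ± 0.775), FOSL2 (11.0), FOSL1 (10.8), JUN (9.08), FOSB (8.77) and ATF3 (3.87 ± 0.827), where neighbours from FOSL2 to FOSB overlapped. The order depends on the length used. Per kilobase of all annotated exons, treated A2780 cells had JUNB (95.0), JUND (73.3), FOS (56.5) and ATF3 (31.7) at the top with no overlap between neighbours, so JUND stood above FOS. On that scale FOS was also below FOSL2 in untreated A2780 cells (5.03 and 5.53) and below FOSL1 in untreated Acis cells (5.06 and 6.22).

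The summed RPKM of the 8 members was 145 ± 4.61 (SD, n = 3) in A2780 control and 143 ± 7.19 in Acis control, and their libraries overlapped. After cisplatin it was 369 ± 6.59 in A2780 and 207 ± 8.88 in Acis. In A2780, JUND and JUNB together with ATF3 and FOS made up most of the sum. In Acis, JUND and JUNB made up most of it, and ATF3 was the lowest of the 8 members. The shares shifted with the drug. FOS went from 5.27% to 23.2% of the sum in A2780 and from 5.36% to 13.5% in Acis, and JUND from 40.1% to 19.9% and from 39.2% to 30.2%. ATF3 held 9.73% and 17.7% of the sum in A2780 but 1.29% and 1.86% in Acis. JUN held 0.489% of the sum in untreated A2780 cells and at most 4.39% as the mean of any group. With all annotated exons as the length instead of the canonical transcript, the treated A2780 share was 19.1% for FOS and 10.7% for ATF3, so these shares depend on the transcript used.

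**Figure D3:**
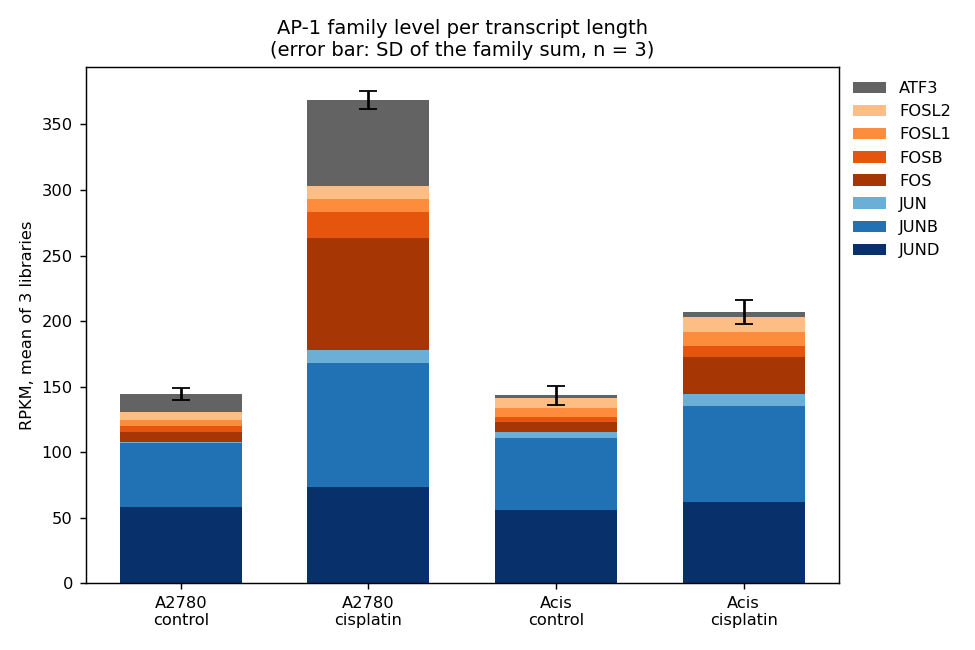
Mean RPKM of each AP-1 gene, stacked, in the 4 groups, with the SD of the sum over 3 libraries as the error bar. The untreated groups reach 145 and 143 RPKM, the treated A2780 group 369 and the treated Acis group 207. With the canonical transcript as the length, as drawn, FOS and ATF3 take most of the added height in A2780, and this depends on the length used.

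Across the 12 libraries, which share 4 conditions and are not independent points, the Pearson correlations of log2 levels between members are given only as a description. The highest were those of FOS with FOSB (r = 0.979) and JUNB (r = 0.975), of FOSL1 with FOSL2 (r = 0.954) and of JUN with FOSL2 (r = 0.948). JUNB also had r of 0.857 with FOSL1 and 0.839 with JUN, and FOS had 0.789 with FOSL1. ATF3 ranged from 0.019 with FOSL2 and 0.049 with JUN to 0.749 with FOSB, and JUND from 0.497 with FOSL2 to 0.860 with FOSB. The patterns were also compared with those of 10898 genes with a mean of at least 50 counts, which include the members. Apart from members, the patterns most like that of FOS were those of HEXIM1 (r = 0.989), C18orf32 (0.989) and SNHG11 (0.982), and for FOSB those of MIR22HG (0.985), NXF1 (0.979) and RALY-AS1 (0.977). HEXIM1, an inhibitor of the elongation factor P-TEFb, had means of 579 normalized counts without and 955 with cisplatin in A2780, and 544 and 731 in Acis. The nearest to JUN were SERTAD1 (r = 0.980), SAT1 (0.976) and RASSF1 (0.975). SAT1, which encodes the enzyme that acetylates spermidine and spermine, had means of 38.6, 194, 94.3 and 164 in the same order, so its untreated Acis level also lay between the untreated A2780 and the treated levels. The nearest to ATF3 were UCK1 (r = 0.991, 12 libraries), PRDX5 (0.989) and HLA-E (0.989), all higher in A2780 than in Acis.

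Duplicate reads had been removed before counting, which limits how many single-end reads a short transcript can keep. FOS, JUNB, JUND and ATF3 are short and had 0.409, 0.454, 0.350 and 0.312 counts per base of the canonical transcript in A2780 cisplatin libraries, while over the highest library of each gene the median was 0.0339 and the 99th percentile 0.554. With a correction that assumes evenly spread read starts, an alternative chosen after seeing the data, the A2780 log2 fold change was 3.83 for FOS (14.2-fold), 1.19 for JUNB (2.28-fold) and 2.43 for ATF3, and for JUN it was 3.75. The same correction gave interaction values of -1.89 for FOS, -0.67 for JUNB and -1.37 for ATF3. The corrected values were the larger ones for each of these genes, and the assumption of even read starts was not tested. For 17 genes the highest library had more than 1 count per base (up to 3.507), where a limit of 1 read start per base of the canonical transcript cannot hold. The RPKM levels, sums and shares above carry no such correction.

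ATAC-seq, which marks accessible DNA by transposase insertion, was read at each member as the peak nearest to the start of the canonical transcript. There is 1 list per condition, made from merged replicates, so no value has a spread and none was tested, and the depth behind the lists is unknown. A peak lay at the start in all 4 lists for all 8 members, covering it in each case except JUND after cisplatin, where the peak began 236 bp away in A2780 and 12 bp away in Acis. At JUN the fold enrichment over local background was 17.7 without and 20.2 with the drug in A2780, and 22.9 without and 24.4 with it in Acis, which placed it at percentiles 85.5, 96.9, 90.5 and 94.6 of the peaks of each list. Untreated A2780 cells had a strong peak at JUN with 0.708 RPKM of its RNA. At ATF3 the fold enrichment was 18.5, 12.6, 19.5 and 20.8 in the same order (percentiles 87.7, 74.5, 80.1 and 88.0). Without the drug, where ATF3 RNA was 7.48-fold lower in Acis, its peak was higher there by fold enrichment and lower by percentile. After the drug, where the RNA was 16.9-fold lower in Acis, the peak was higher there by both measures. At FOS it was 7.60, 8.85, 10.9 and 10.5 (percentiles 32.8, 50.8, 39.6 and 46.8).

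The other members gave 4.50, 4.07, 6.90 and 5.21 for FOSB, 11.4, 8.39, 14.2 and 13.8 for FOSL1, 16.6, 13.5, 22.1 and 22.8 for FOSL2, 6.37, 5.75, 9.91 and 9.75 for JUNB, and 6.22, 6.23, 6.16 and 5.58 for JUND. The Acis values were above the A2780 values for every member except JUND, and the medians of the lists (9.96, 8.79, 12.8 and 11.0) were also higher in Acis. The FOS peak was 1012 bp wide in A2780 control and 1586 bp in A2780 cisplatin, and 474 and 756 bp in Acis. The ATF3 peak was 879 and 1291 bp wide in A2780 and 713 and 741 bp in Acis, while the median widths of the lists were 642, 566, 619 and 507 bp. The JUN peak, 683 and 860 bp wide in A2780 and 787 and 826 bp in Acis, was also wider after the drug in both lines. The JUNB peak was wider after the drug in A2780 (799 and 956 bp) and narrower in Acis (637 and 274 bp), as was the FOSB peak (760 and 862 bp, then 898 and 330 bp). FOSL1 (477 and 383 bp, then 486 and 355 bp) and JUND (1106 and 860 bp, then 915 and 874 bp) had narrower peaks after the drug in both lines. The FOSL2 peak was narrower in A2780 (622 and 333 bp) and of nearly the same width in Acis (609 and 610 bp).

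**Figure D4:**
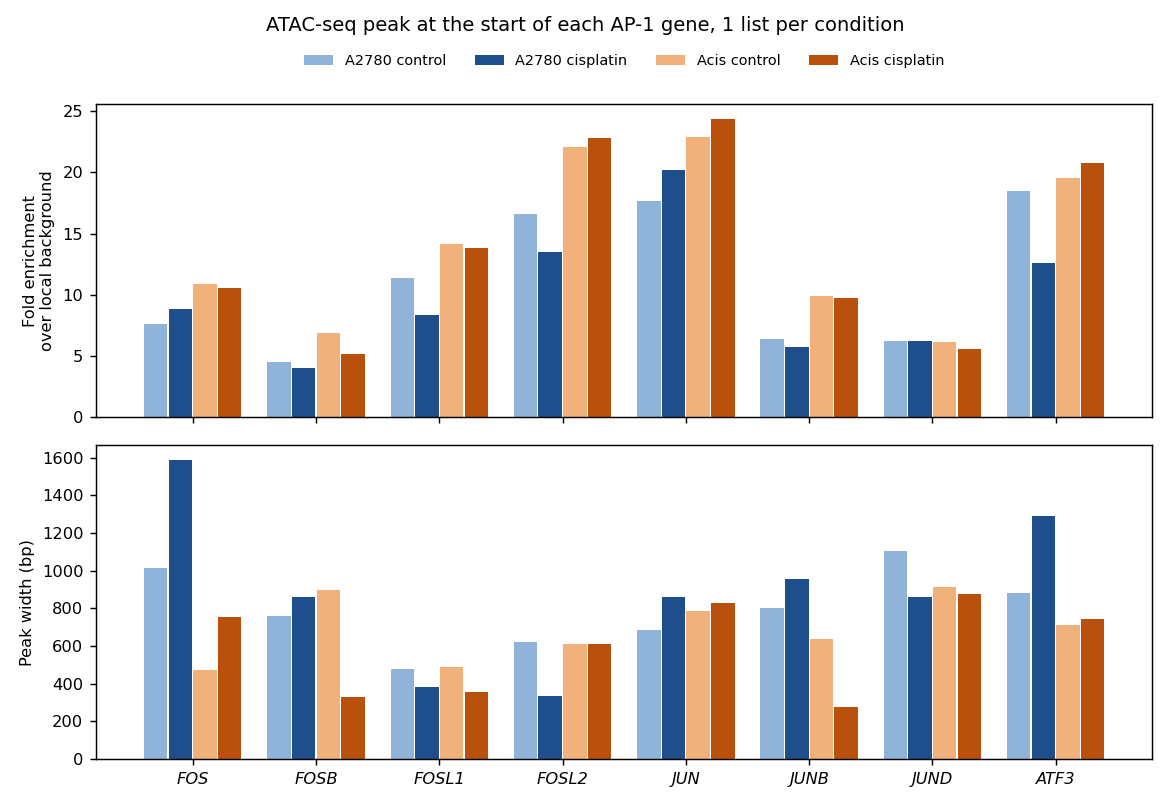
Fold enrichment over local background (top) and width in bp (bottom) of the ATAC-seq peak at the start of each AP-1 gene, 1 bar per list and both axes starting at 0. No error can be drawn because each condition has 1 list. By fold enrichment the ATF3 bars are 19.5 and 20.8 in Acis and 18.5 and 12.6 in A2780, and the FOS and ATF3 peaks are widest in A2780 cisplatin (1586 and 1291 bp).

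Within 10000 bp of the member genes the lists held 20, 23, 17 and 18 peaks, which fell into 25 separate regions, of which 15 were present in all 4 lists and 5 in 1 list. Of the 45685 regions of the merged lists, at any distance from genes, 38.5% were in all 4 lists and 31.1% in 1 list. Of the 5 near member genes, 2 lay at ATF3 in A2780 cisplatin, at chr1:212596050-212596729, upstream of the start shown above and inside the gene, with a fold enrichment of 11.8, and at chr1:212609528-212609892, downstream of that start, with 2.61 (hg38). The other 3 lay at FOS in A2780 control, at FOSL1 in A2780 cisplatin and at FOSL1 in Acis cisplatin. Over whole lists, TGANTCA was found in 6.98%, 6.49%, 6.45% and 6.78% of 300-base windows at peak summits, with no test. In A2780, 9.43% of the 9329 peaks that had no overlap after cisplatin and 8.13% of the 6152 peaks with no overlap in control held it, against 6.09% of the 25650 control peaks that were kept. These peaks were weaker, with median -log10 q of 26.3, 13.1 and 99.0. The full TGACGTCA ran the other way, in 0.204% of the lost and 1.68% of the kept control peaks. In Acis, TGANTCA was in 7.0% of lost, 7.92% of gained and 6.37% of kept control peaks. Lost, gained and single-list peaks compare control lists of 3 replicates with cisplatin lists of 2, and the effect of this was not tested.

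Other genes of the pathway were read from 3 lists. Of 29 bZIP factors that can pair with AP-1 proteins or share their sites, 25 were tested, and with the 2-fold rule 2 rose in A2780, none changed in Acis, and by the adjusted p alone 11 rose and 6 fell in A2780 and 4 rose and 1 fell in Acis. Over all tested genes the 2-fold rule called 4.14% higher in A2780 and 1.64% in Acis. The adjusted p alone called 21.2% higher and 28.2% lower in A2780, and 9.35% higher and 12.5% lower in Acis. Those called by both criteria were MAFF, a small MAF protein (log2 fold change 1.56 ± 0.08, edgeR adjusted p = 8.95e-15), and MAFA (1.47 ± 0.19, adjusted p = 3.42e-07). Their median log2 fold change was 0.17 in A2780 and 0.08 in Acis, beside -0.01 and 0.01 over all genes. By the adjusted p the interaction was positive for 4 of them and negative for 5 (2 and 9 with total counts as library size), where 13.4% of all tested genes had a positive and 5.48% a negative interaction. They included CREB1 (0.59, edgeR adjusted p = 4.09e-05), MAFA (-1.31, 8.44e-05), the stress factor DDIT3 (-0.73, 0.000213) and MAFF (-0.70, 0.000448). Between the untreated lines 4 were higher in Acis and 2 lower by the 2-fold rule, beside 6.99% and 12.2% of all tested genes. Among them were MAFA (2.80), NFE2L3 (2.05), MAFK (1.15) and BATF2 (-3.11).

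Of 34 kinases of the MAP kinase cascades and SRF, ETS and MEF2 factors that act on AP-1 genes, all were tested. In A2780, 1 fell by the 2-fold rule, MAP3K5, a stress kinase of the JNK and p38 branch (log2 fold change -1.04 ± 0.16, edgeR adjusted p = 6.8e-06), where 1.48% of all genes fell by that rule, and none was called in Acis. By the adjusted p alone 6 of the 34 rose and 17 fell in A2780 and 0 rose and 5 fell in Acis, beside the 28.2% and 12.5% of all genes that fell. Their median was -0.21 in A2780 and -0.03 in Acis, and with total counts as library size 10 rose and 13 fell in A2780 and 2 rose and 2 fell in Acis. By the adjusted p of the interaction, the cisplatin effect was more positive in Acis for 11 and more negative for 0. These were 8 and 1 with total counts and 5 and 0 with DESeq2. By the same adjusted p 13.4% of all genes were more positive and 5.48% more negative. The 11 include ELK4 (0.38, edgeR adjusted p = 1.4e-05), RPS6KA3 (0.43, 5.66e-05), MAP3K20 (0.35, 0.00214) and MAP3K7 (0.30, 0.00314). Before treatment 1 was higher and 4 lower in Acis by the 2-fold rule, where 6.99% of all tested genes were higher and 12.2% lower. MAP2K6, which phosphorylates p38, had a log2 fold change of -4.99 ± 0.09 (edgeR adjusted p = 1.42e-26), MAP3K1 of -1.44 and MAP3K5 of 1.47, and MEF2C, a transcription factor that acts on the JUN promoter, had a mean of 1030.0 normalized counts in A2780 control and no count in any Acis library.

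Of 32 genes known as AP-1 targets in other systems, 24 were tested. HBEGF, an EGF receptor ligand, was the 1 called after cisplatin in A2780 (36.1 to 128 normalized counts, log2 fold change 1.83 ± 0.12, edgeR adjusted p = 2.21e-12) and none was called in Acis, where HBEGF had 0.88 ± 0.10 (adjusted p = 7.36e-08). By the adjusted p alone 9 rose and 4 fell in A2780, and 3 rose and 3 fell in Acis, beside 21.2% higher and 28.2% lower in A2780 and 9.35% and 12.5% in Acis over all genes, and the medians were 0.08 and 0.01. With total counts as library size 14 rose and 1 fell in A2780 and 5 rose and 2 fell in Acis. The interaction was negative for HBEGF (-0.95, edgeR adjusted p = 0.000153), CLU (-0.39, 0.000437) and TIMP1 (-0.21, 0.0303), and positive for none. Over all tested genes, 5.48% had a negative and 13.4% a positive interaction at an adjusted p under 0.05. Between the untreated lines 4 were higher in Acis and 6 lower by the 2-fold rule, beside 6.99% and 12.2% of all tested genes. The collagenase MMP1 had 58.4 and 1048 normalized counts in A2780 and Acis control (log2 fold change 4.16, edgeR adjusted p = 1.48e-26) and the stromelysin MMP3 had 439 and 1425 (1.70, 4.04e-23), while PLAU (-3.84, 4.72e-18), the urokinase gene, and CDKN1A (-1.80, 5.64e-19), the cell cycle inhibitor p21, were lower.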

How the data were processed

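RNA-seq counts of 12 libraries and 4 ATAC-seq peak lists were used. XR-seq samples were not analysed here. Per the methods, the authors aligned stranded, ribosomal RNA-depleted single-end reads with STAR, removed duplicates with Picard and counted with htseq-count on the reverse strand, and deposited raw counts. FOSB and JUNB overlap ERCC1 and HOOK2 on the other strand, which this counting separates, and FOSL2 overlaps a long non-coding RNA gene on each strand, of which the one on its own strand is not separated. For ATAC-seq the authors aligned reads with Bowtie2 to hg38, removed duplicates, called peaks with MACS2 and kept peaks shared by all replicates of a condition. Each deposited peak has a fold enrichment over background and a -log10 p and -log10 q value, and the deposited score was not used for any result.

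Counts were fitted in R 4.3.3 with edgeR 4.0.16 (TMM factors 0.965 to 1.05, default low-count filter, 4 groups, 8 residual degrees of freedom). Its quasi-likelihood test covered 15760 genes, adjusted by Benjamini-Hochberg. Calls needed an adjusted p under 0.05 and a 2-fold change, and for the interaction the adjusted p alone. DESeq2 1.42.0, named by the paper, was an alternative. Both were tested on simulated data. To obtain normalized counts, each count was divided by its TMM-adjusted library size and multiplied by the mean size. Lengths came from GENCODE 44. Further tools were Python 3.11.15, pandas 2.3.3, pysam 0.24.0 and matplotlib 3.10.9.

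Replicate numbers were not used to pair the samples, and a block on them was an alternative. All 3 libraries of a group entered as replicates, and averaging the closest pair was an added alternative. The members, gene lists and tests were chosen with earlier results of these data known. The named genes were the members, at most 4 called genes per list and comparison with the smallest adjusted p, and the 3 genes most correlated with each of FOS, FOSB, JUN and ATF3.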

Additional observations from a re-analysis of the deposited data

Results flagged for a closer look

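The cisplatin effect differed between the lines, by the test of the interaction with edgeR's quasi-likelihood method, for 6 of the 8 members. All 6 interactions were negative, where 5.48% of all tested genes had a negative and 13.4% a positive one at an adjusted p under 0.05. The log2 fold change in Acis minus that in A2780 was -2.56 for JUN (1.16 against 3.72), -1.62 for FOS (1.87 against 3.49), -1.17 for ATF3 (1.04 against 2.21), -0.88 for FOSB (1.26 against 2.14), -0.55 for JUNB (0.41 against 0.96) and -0.30 for FOSL2 (0.45 against 0.75). Of these 6, FOSL2 lost the call in 12 of 20 other settings and the other 5 kept it in all 20.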

How the results depend on the processing

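Of 832 values of single members under other settings, 811 kept their side of the threshold, 18 lost a call, 3 gained one and 0 called values reversed. Of the 811, 802 kept their sign and 9 values near 0 did not, 7 of FOS and 1 of JUND between untreated lines and 1 of JUN between treated lines, none of which passed the test. With the adjusted p alone instead of the 2-fold rule, 8 members were called in A2780, 7 in Acis, 5 between untreated and 5 between treated lines, and with a 2-fold rule added 3 had an interaction. Leaving out single libraries gave 4 to 5 members called in A2780, 3 to 4 in Acis, 2 between untreated lines, 3 between treated lines and 5 to 6 for the interaction, and over all comparisons 12 to 16 bZIP partners, 13 to 17 kinases and SRF or ETS factors and 12 to 14 targets. JUNB in A2780 passed 2-fold with total counts as library size (1.07) and with a mean of at least 50 counts (1.00), and FOSL1 fell below it with no low-count filter (0.98) and with averaged replicates in 3 groups (0.99).

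Total counts as library size moved the median of all genes to 0.10 in A2780 and 0.07 in Acis, and the calls higher and lower from 652 and 233 to 800 and 153 in A2780 and from 2110 and 864 to 1468 and 1568 for the interaction. DESeq2 called 1090 and 294 for the interaction and 136 and 44 in Acis, where edgeR called 258 and 59. Correlations of same-numbered libraries were -0.176 to 0.245, and 6 of 12 libraries correlated best with their own number. Among A2780 control, A2780 cisplatin and Acis control the same-numbered correlations were 0.0183 to 0.245. Those with Acis cisplatin libraries were -0.176 to 0.088. Acis cisplatin replicate 3 had 0.222 with Acis control replicate 1 and -0.176 with Acis control replicate 3. Among members, the replicate block changed 1 call (FOSL2 interaction, -0.30, edgeR adjusted p = 0.0541), and over all genes it gave 2188 and 911 interaction calls. The numbers of the Acis cisplatin libraries may not match those of the other groups, so the block cannot show that a shared batch leaves the calls unchanged. Peaks within 50000 bp numbered 54, 63, 47 and 53. Low counts limit JUN in untreated A2780 and ATF3 in Acis.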
